A study of Mus musculus with 6 samples.

Results

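Described here are 10 mouse genes of the chondrogenic and tendon lineages, chosen by name and followed in osteoblasts treated with corticosterone. They are the cartilage transcription factors *Sox9*, *Sox5* and *Sox6*, the tendon transcription factors *Scx* and *Mkx*, the tendon membrane protein gene *Tnmd*, and the cartilage matrix genes *Acan*, *Comp*, *Matn2* and *Hapln1*. Matched by Ensembl identifier, 9 of the 10 were analysed among 24016 genes. *Acan*, which encodes the cartilage proteoglycan aggrecan, was not analysed here.

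The data are 6 RNA-seq libraries of MC3T3-E1 subclone 4, a clonal line of mouse preosteoblasts with a wild-type genotype. All cells had been driven towards osteoblasts for 6 days with β-glycerophosphate (10 mM) and ascorbic acid (50 µg/ml), and for every library the labels give 10 nM calcitriol, the active form of vitamin D, during the treatment. The 3 control libraries came from cells given vehicle, whose solvent the labels do not name, and the other 3 from cells given 100 nM corticosterone, the main glucocorticoid of rodents, for 24 h. The group was taken from the title of each library, while the free text on treatment is the same for all 6 and names corticosterone for the vehicle libraries too. The study describes its replicates as independent, without saying how those of these libraries were separated, and the p-values measure the spread between these samples.

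Chondrocytes, tendon cells and osteoblasts arise from related mesenchymal progenitors, and which genes a progenitor keeps on helps to set its path. *Sox9* starts the cartilage programme and, together with *Sox5* and *Sox6*, switches on the genes of cartilage matrix, while *Scx* marks tendon progenitors and acts upstream of *Tnmd*. Glucocorticoids act through the glucocorticoid receptor, a transcription factor that binds DNA as a dimer, and long exposure to them is known to slow bone formation.

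Values are given as normalized counts, that is, reads on a gene divided by 1 size factor per library. Between 16020401 and 25638645 reads per library fell on genes, and all 3 corticosterone libraries (16020401 to 18992332) were shallower than the vehicle libraries (19076586 to 25638645). A gene with 3 reads, used here as the floor of counting, has a normalized count of 2.32 to 3.84. All 9 osteoblast markers were analysed, and their summed normalized count was 1.36e+06 to 1.40e+06 with vehicle and 1.18e+06 to 1.24e+06 with corticosterone. Most of this sum came from *Col1a1* and *Col1a2*, so it says little about the other markers. On the log2 scale *Runx2*, *Sp7*, *Ibsp* and *Bglap* were lower by 1.16, 1.34, 1.20 and 1.87. *Spp1* and *Dmp1* were above 0 (0.23 and 0.05), and the rest were lower by less. The glucocorticoid-responsive genes *Fkbp5*, *Tsc22d3*, *Sgk1* and *Per1* were all higher with corticosterone, by 1.49 to 2.75 on the log2 scale.

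Between the groups, these lineage genes differed in both directions. *Matn2*, a matrix adaptor protein gene, rose by 1.59 ± 0.04 (log2 fold change ± SE, n = 3 per group), while the tendon factor *Scx* fell by 1.62 ± 0.23 and the link protein gene *Hapln1*, with very few reads, fell by 2.61 ± 0.84. The cartilage factors fell by less, *Sox5* by 0.77 ± 0.10, *Sox6* by 0.66 ± 0.16 and *Sox9* by 0.16 ± 0.05. The tendon factor *Mkx* (-0.03 ± 0.14) and the matrix gene *Comp* (-0.49 ± 0.59) did not pass the test, and *Tnmd* was at or under the floor in every library.

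A gene was called past the threshold at an adjusted p under 0.05 (limma, Benjamini-Hochberg over 24016 genes) and an absolute log2 fold change over 1. Of the 9 genes, 1 passed it upwards and 2 downwards, against a background of 1.38% and 1.40% of all genes. On the adjusted p alone, 1 was higher and 5 were lower, against 8.49% and 8.20% of all genes. Of the 6 with a mean normalized count of at least 10, 1 was higher and 4 were lower by that rule, against 14.2% and 13.5% of the 13880 genes at this level. The values of the groups did not overlap for 6 of the 9, as for 29.6% of all genes. That share is larger among the 13880 genes with a mean of at least 10, where 3062 were lower and 3018 higher without overlap. The median log2 fold change was -0.66 over the 9 genes and -0.01 over all genes. In a bulk sample, fewer cells of a type and less RNA per cell cannot be told apart.

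**Figure D1:**
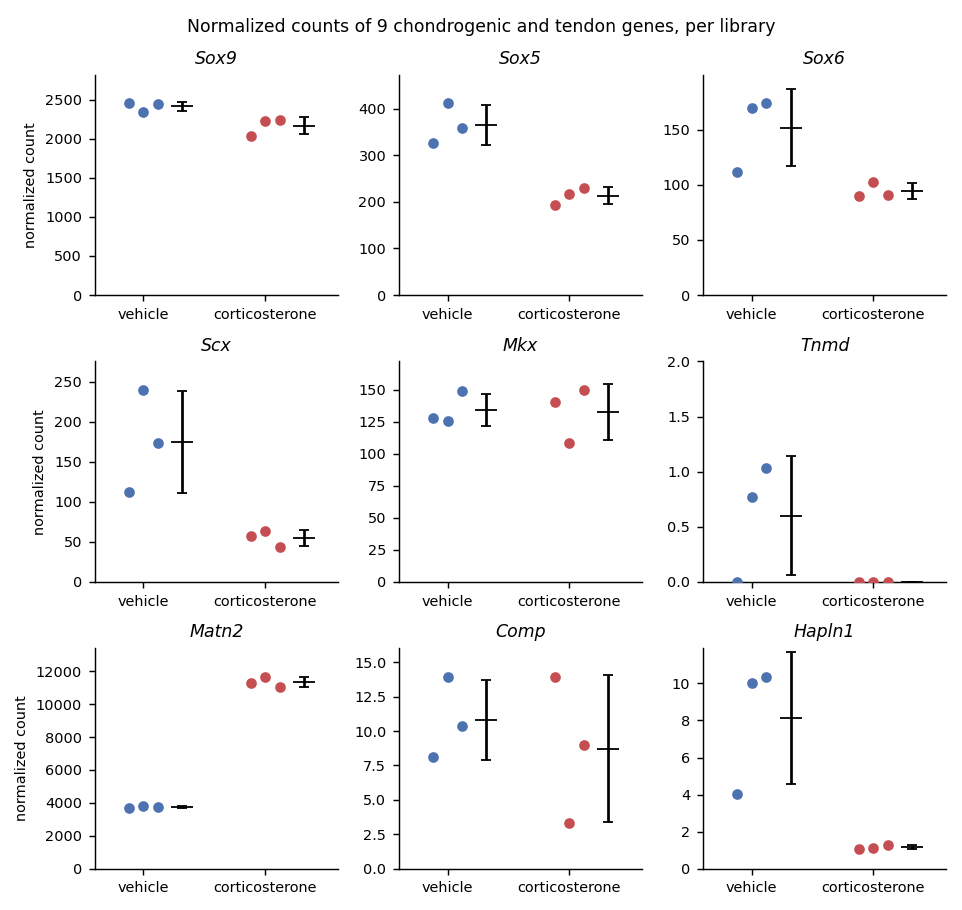
Normalized counts of the 9 analysed genes (y axis, a separate linear scale from 0 for each gene) in the 3 vehicle libraries (blue) and the 3 corticosterone libraries (red), with the group mean and SD in black. *Matn2* is the one gene whose corticosterone libraries all lie above the vehicle libraries, while those of *Sox9*, *Sox5*, *Sox6*, *Scx* and *Hapln1* all lie below them.

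*Sox9* (ENSMUSG00000000567, chr11:112782224-112787760, plus strand of GRCm38) encodes the factor that commits mesenchymal cells to cartilage. Its normalized counts were 2452, 2346 and 2438 with vehicle and 2036, 2227 and 2234 with corticosterone. The groups did not overlap, but the distance between the lowest vehicle and the highest corticosterone library was small. The mean went from 2412 ± 57.4 to 2166 ± 112 (SD, n = 3), a ratio of 0.898 with a limma adjusted p of 0.036. With single libraries left out, the limma adjusted p was 0.041 without vehicle 2 and 0.059 to 0.20 without each of the other 5, so the call was lost without any of those 5. It was also lost, at 0.29, when the variance was not allowed to follow the expression level.

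*Sox5* and *Sox6* encode SoxD proteins, which lack an activation domain of their own and help SOX9 on the enhancers of cartilage genes. *Sox5* (ENSMUSG00000041540, chr6:143828425-144781977, minus strand) and *Sox6* (ENSMUSG00000051910, chr7:115470872-116038796, minus strand) are both long genes with several starts. The RefSeq promoter table of GRCm38.p6 held 1 start of *Sox5* and 6 of *Sox6*, and 250 bases before each were searched on both strands for the glucocorticoid receptor half-site TGTTCT, which reads as AGAACA on the other strand, and for the SOX core AACAAT, which reads as ATTGTT there. A half-site and a reversed SOX core can overlap, but none did in these windows. These 2 windows, the only ones holding the half-site among the 10 examined for 5 of the listed genes, are shown for genes that fell together. They lie at chr6:143947107-143947356 and chr7:116031048-116031297, both on the minus strand and both inside the annotated span of the gene, and are written 5′ to 3′ with the half-site in capitals.
*Sox5*: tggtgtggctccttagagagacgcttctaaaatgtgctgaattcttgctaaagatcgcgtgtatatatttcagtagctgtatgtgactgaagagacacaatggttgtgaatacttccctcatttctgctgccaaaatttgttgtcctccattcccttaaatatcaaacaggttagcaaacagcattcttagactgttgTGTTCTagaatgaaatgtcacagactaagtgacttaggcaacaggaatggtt
*Sox6*: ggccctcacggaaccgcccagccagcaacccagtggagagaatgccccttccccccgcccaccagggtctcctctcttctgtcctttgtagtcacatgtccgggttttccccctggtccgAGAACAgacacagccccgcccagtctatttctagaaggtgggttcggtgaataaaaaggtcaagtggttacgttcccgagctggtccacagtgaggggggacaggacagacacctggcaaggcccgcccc

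In the *Sox5* window the half-site stood 52 bases before the start, and in the *Sox6* window 130 bases before it. Of all 32851 windows of this length, 16.1% held the half-site, so 2 of the 10 examined is a share close to that of promoters in general. The SOX core, found in 9.42% of all windows, was in neither of the 2, while another *Sox6* window held 2 copies. A match of 6 letters is a description of the sequence and not of binding.

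*Sox5* had normalized counts of 325, 411 and 359 with vehicle and 194, 218 and 229 with corticosterone. Every corticosterone library was well below every vehicle library. The mean fell from 365 ± 43.4 to 213 ± 18.0 (SD, n = 3), a ratio of 0.585 with a limma adjusted p of 3.2e-05, short of the fold threshold. The antisense gene *Sox5os1*, not analysed here, shares 1330 exon bases with *Sox5*, and the library kit does not mark strand, so reads there could not be assigned to 1 strand. Of the 31-base stretches of *Sox5*, 9.37% also lie in transcripts of another gene.

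*Sox6* had normalized counts of 112, 170 and 174 with vehicle and 89.9, 102.7 and 90.8 with corticosterone. Here vehicle 1 lay close to the corticosterone libraries, without reaching them. The mean fell from 152 ± 34.6 to 94.5 ± 7.14 (SD, n = 3), a ratio of 0.622 with a limma adjusted p of 0.0091. Without vehicle 2, vehicle 3, corticosterone 1 or corticosterone 3 it was 0.078, 0.14, 0.059 and 0.093, without a variance trend 0.17, and with all libraries thinned to the smallest 0.097.

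The proportion of *Sox5* to *Sox6* within a library was compared as well, since it does not depend on the scaling between libraries. The log2 ratio of *Sox5* over *Sox6* was 1.29 ± 0.25 with vehicle and 1.17 ± 0.14 with corticosterone (SD, n = 3), a difference of -0.11 ± 0.16 (SE) with overlapping groups and a two-sided exact permutation p of 0.7. With 3 libraries against 3, the smallest p this test can give is 0.1. The log2 ratio of *Sox9* over *Sox5*, a pair chosen after its values were seen, was higher with corticosterone by 0.61 ± 0.12 (SE), without overlap of the groups and at an exact permutation p of 0.1.

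The other SOX genes were lower or did not pass the test. *Sox8*, the SoxE relative of *Sox9*, went from 83.7 ± 11.8 to 49.5 ± 9.61 (SD, n = 3; log2 fold change -0.77 ± 0.20, limma adjusted p = 0.012), although 9.73% of its 31-base stretches also lie in other transcripts. *Sox13*, the remaining SoxD gene, had 12, 23 and 10 reads with vehicle and 2, 3 and 3 reads with corticosterone. It passed the threshold at a log2 fold change of -1.98 ± 0.62 and a limma adjusted p of 0.040, and the ratio of vehicle over corticosterone from its 45 and 8 reads was 4.22 with an exact 95% interval of 1.97 to 10.4 that covers counting error only. Leaving out any 1 library took its limma adjusted p to between 0.052 and 0.17. The 3 SoxD genes were thus all lower with corticosterone, each without overlap between the groups. Groups did not overlap for 29.6% of all genes in either direction, and the adjusted p of *Sox6* and *Sox13* depended on single libraries. That of *Sox8* did too, with a limma adjusted p of as much as 0.082 when single libraries were left out.

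*Scx* (ENSMUSG00000034161, chr15:76457452-76459458, plus strand) encodes scleraxis, the basic helix-loop-helix factor of tendon and ligament progenitors. Its normalized counts were 112, 239 and 174 with vehicle and 57.8, 63.0 and 43.5 with corticosterone. The vehicle libraries were spread widely, from 138 to 310 reads, yet the lowest of them was still far above the corticosterone libraries, which held 34 to 57 reads. The mean fell from 175 ± 63.7 to 54.8 ± 10.1 (SD, n = 3), a ratio of 0.313 with a limma adjusted p of 5.9e-05. Leaving out any 1 library gave a log2 fold change between -1.91 and -1.36 and kept it past the threshold, while the fit without a variance trend gave an adjusted p of 0.065.

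*Scx* lies within the span of *Bop1*, a ribosome biogenesis gene on the opposite strand, with 0 shared exon bases. *Bop1* went from 1230 ± 32.6 to 1374 ± 52.3 (SD, n = 3; log2 fold change 0.16, limma adjusted p = 0.044), opposite to *Scx*. The log2 ratio of *Scx* over *Bop1* within a library was lower with corticosterone by -1.78 ± 0.39 (SE), a comparison chosen after its values were seen.

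*Mkx* (ENSMUSG00000061013) encodes Mohawk, a homeobox factor of tendon that is related to the Iroquois genes. Its normalized counts were 128, 126 and 149 with vehicle and 140, 108 and 150 with corticosterone. The groups overlapped fully. The means of 134 ± 12.7 and 133 ± 21.7 (SD, n = 3) gave a log2 fold change of -0.03 ± 0.14 and a limma adjusted p of 0.95, and leaving out single libraries moved the fold change between -0.12 and 0.11. Of its exon bases, 201 are shared with the overlapping gene *AC148004.2* on the same strand. Promoter windows on chromosome 18, where *Mkx* lies, were left out of the search of the listed genes. The count of examined windows with the half-site therefore does not cover *Mkx*.

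The tendon factors *Scx* and *Mkx* were compared in the same way. Within a library, the log2 ratio of *Scx* over *Mkx* was -0.20, 0.93 and 0.22 with vehicle and -1.28, -0.78 and -1.78 with corticosterone. These ratios are of counts, not corrected for length, so they do not rank the levels of the 2 genes. Per kilobase of exon, *Scx* was above *Mkx* in every vehicle library (at least 55.8 against at most 36.4). With corticosterone the 2 genes overlapped on that scale (21.7 to 31.4 against 26.4 to 36.6). The log2 ratio differed between the groups by -1.60 ± 0.44 (SE), with an exact permutation p of 0.1, the smallest possible. After Benjamini-Hochberg adjustment over the 5 pairs of listed genes compared, that p was 0.167. *Sox9* over *Scx* was higher with corticosterone by 1.47 ± 0.38 (SE) on the same log2 scale, also at an exact permutation p of 0.1.

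*Tnmd* (ENSMUSG00000031250) encodes tenomodulin, a membrane glycoprotein of mature tendon cells. It had 0, 1 and 1 reads with vehicle and 0 in each corticosterone library. At this depth no difference was detectable, and no fold change is given. The within-library ratio of *Scx* over *Tnmd* rests on the same few reads and differed by 0.59 ± 0.87 (SE) between the groups, at an exact permutation p of 0.6.

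*Matn2* (ENSMUSG00000022324, chr15:34306677-34436273, plus strand) encodes matrilin-2, an adaptor that links collagen fibrils and other matrix networks and that many connective tissues make besides cartilage. Its normalized counts were 3674, 3801 and 3771 with vehicle and 11289, 11645 and 11045 with corticosterone. Libraries of 1 group were close together, and the groups were far apart. The mean rose from 3749 ± 66.4 to 11326 ± 301 (SD, n = 3), a ratio of 3.02 with a limma adjusted p of 7.2e-14. *Matn2* stayed past the threshold in all 19 alternative fits (that without a filter repeats the main fit), with log2 fold changes of 1.55 to 1.61. The gene *9430069I07Rik* on the other strand shares 70 of its exon bases.

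Among the matrilins, *Matn2* rose and *Matn4* fell. *Matn4*, a relative found in cartilage and other tissues, had normalized counts of 4670, 5458 and 5178 with vehicle and 1355, 1685 and 1613 with corticosterone. It was lower in every corticosterone library by a wide distance (log2 fold change -1.72 ± 0.07, limma adjusted p = 5.2e-11). *Matn3*, a cartilage and growth plate matrilin, gave -0.32 ± 0.16 (adjusted p = 0.24), and *Matn1*, the cartilage-restricted matrilin, was at or under the floor. Since genes differ in length, levels are compared per kilobase of exon. On that scale *Matn4* was above *Matn2* with vehicle, at 986 ± 77.2 against 599 ± 10.6 (SD, n = 3), and below it with corticosterone, at 300 ± 33.5 against 1808 ± 48.1. The log2 ratio of *Matn2* over *Matn4* was higher with corticosterone by 3.32 ± 0.11 (SE) within libraries, a pair chosen after its values were seen, with an exact permutation p of 0.1. *Matn4* shares 149 exon bases with *Rbpjl* on the opposite strand, which fell as well, from 332 ± 57.6 to 98.7 ± 4.11 normalized counts, and reads in those bases could not be assigned to either gene.

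**Figure D2:**
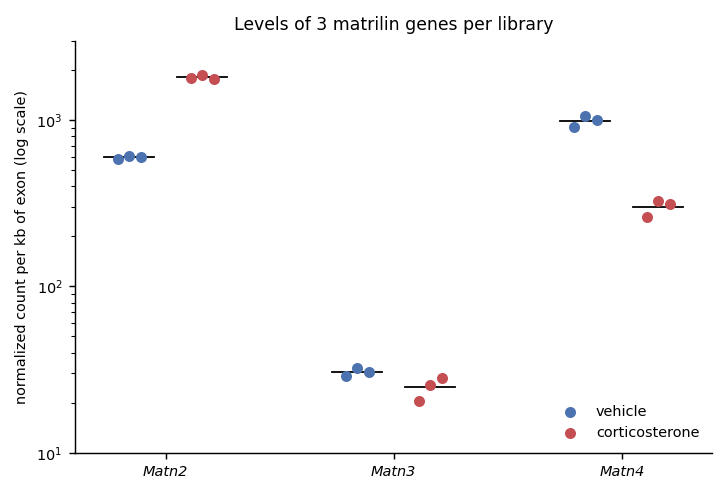
Levels of *Matn2*, *Matn3* and *Matn4* as normalized counts per kilobase of exon (y axis, log scale), with 1 point per library, vehicle in blue and corticosterone in red, and bars at the group means. *Matn2* and *Matn4* exchange places between the groups, from 599 and 986 with vehicle to 1808 and 300 with corticosterone.

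*Comp* (ENSMUSG00000031849, chr8:70373558-70382066, plus strand) encodes cartilage oligomeric matrix protein, a thrombospondin of cartilage and tendon. Its normalized counts were 8.11, 13.9 and 10.3 with vehicle and 13.9, 3.31 and 8.96 with corticosterone. The groups overlapped, and 1 corticosterone library held 3 reads. From 38 and 23 reads, the ratio of vehicle over corticosterone was 1.24 with an exact 95% interval of 0.719 to 2.18, so neither a change of this size nor its absence could be shown at this depth. The log2 ratio of *Comp* over *Matn2* was lower by -2.08 ± 0.65 (SE) with corticosterone, without overlap and at an exact permutation p of 0.1, in a pair of which only *Matn2* passed the test.

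*Hapln1* (ENSMUSG00000021613, chr13:89539796-89611652, plus strand) encodes the link protein that holds aggrecan on hyaluronan. It had 5, 13 and 10 reads with vehicle and 1 read in each corticosterone library. The corticosterone libraries were all under the floor. From these 28 and 3 reads, the ratio of vehicle over corticosterone was 7.0, with an exact 95% interval of 2.16 to 36.0 for counting error only. The limma adjusted p of 0.043 was lost without vehicle 2 or vehicle 3 (0.15 each), without corticosterone 1, 2 or 3 (0.073, 0.068 and 0.064) and after thinning to the smallest library (0.25).

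*Hapln1* lies next to *Vcan*, which encodes the aggrecan relative versican, at a distance of 43659 bases with no protein-coding gene between them. *Vcan* had normalized counts of 893 ± 35.0 with vehicle and 964 ± 83.4 with corticosterone (SD, n = 3) in overlapping groups, with a log2 fold change of 0.11 ± 0.07 and a limma adjusted p of 0.35. *Hapln4*, a link protein gene best known from brain, was the most counted of the 4 link protein genes and fell from 198 ± 8.94 to 121 ± 10.7 (log2 fold change -0.71 ± 0.11, limma adjusted p = 0.00026).

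Ordered by level per kilobase of exon with vehicle, the 9 genes ran from *Matn2* (599 ± 10.6, SD, n = 3) and *Sox9* (583 ± 13.9), whose libraries overlapped, through *Scx* (87.2 ± 31.7), *Mkx* (32.8 ± 3.11), *Sox5* (25.4 ± 3.02), *Sox6* (10.2 ± 2.33) and *Comp* (3.63 ± 0.983) to *Hapln1* (1.38 ± 0.601) and *Tnmd* (0.445 ± 0.397), which overlapped. Both leading genes stood above 93.2% of all genes on this scale, while *Comp* stood above 35.0% and *Hapln1* above 24.1%. With corticosterone *Matn2*, at 1808 ± 48.1, was clear of *Sox9*, at 524 ± 27.1. *Scx*, at 27.3 ± 5.02, had come down to overlap *Mkx*, at 32.4 ± 5.30. This order depends on the length used. With the longest transcript in place of the union of exons, *Matn2* stood at 1048 with vehicle and no longer overlapped *Sox9*, *Sox6* stood at 17.5, and *Sox5*, at 50.4, was above *Mkx*, at 36.8, and overlapped *Scx*.

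**Figure D3:**
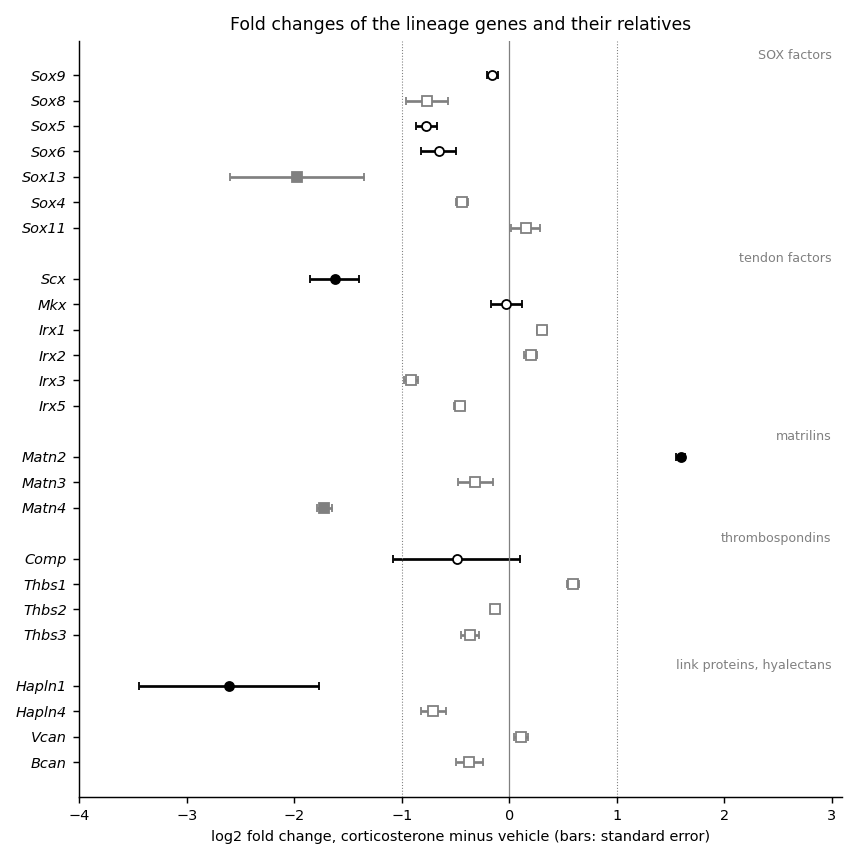
Log2 fold change of corticosterone over vehicle (x axis; bars, SE of the limma fit) for the analysed lineage genes except *Tnmd* (black circles) and for relatives (grey squares), by family; filled symbols passed the threshold and dotted lines mark log2 fold changes of -1 and 1. *Matn2* at 1.59 stands opposite *Matn4* at -1.72, and *Scx* at -1.62 stands apart from *Mkx* at -0.03.

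Other genes of both lineages were read from lists of cartilage genes, tendon genes and relatives of the 10 genes. Of 80 listed genes 71 were analysed, of which 1 passed the threshold upwards and 6 downwards, against 1.38% and 1.40% of all genes. By the adjusted p alone 10 were higher and 28 lower, and 33 did not pass. The shares of all genes are 8.49% and 8.20% by that rule, and 14.2% and 13.5% of those with a mean of at least 10, as 49 of the 71 had. Their median log2 fold change was -0.35, against -0.01 for all genes.

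Of 31 other cartilage genes, 30 were analysed, of which 4 were higher and 8 lower by adjusted p. With 19 of the 30 at a mean of at least 10, where 14.2% of all genes were higher and 13.5% lower, the 4 that were higher are near the share of all genes. Among the collagens of cartilage, *Col2a1*, its main fibril collagen, went from 1297 ± 158 to 744 ± 81.0 normalized counts (SD, n = 3; log2 fold change -0.80 ± 0.09, limma adjusted p = 3.5e-06). *Col11a2*, which joins it in the fibril, went from 1147 ± 150 to 377 ± 40.8 and passed the threshold (-1.60 ± 0.09, 2.0e-09), and *Col11a1* fell by 0.45 ± 0.05. *Col10a1*, the collagen of hypertrophic chondrocytes, was instead higher, from 58.0 ± 7.47 to 96.0 ± 13.3 (0.73 ± 0.17, limma adjusted p = 0.0073). With single libraries left out, the limma adjusted p of *Col10a1* rose to as much as 0.062. Of the collagen IX genes, *Col9a3* was higher too, from 93.0 ± 6.47 to 152 ± 3.05 (0.71 ± 0.12, limma adjusted p = 0.00054), *Col9a2* did not pass the test (-1.43 ± 0.74, limma adjusted p = 0.24) and *Col9a1* was not analysed here. *Cytl1*, a secreted factor of chondrocytes, had normalized counts of 9.73, 11.6 and 14.5 with vehicle and 42.8, 37.6 and 40.9 with corticosterone. It was the only gene of the 3 lists past the threshold upwards (1.77 ± 0.32, limma adjusted p = 0.00075). *Snorc*, a small proteoglycan gene of cartilage, had 7, 4 and 5 reads with vehicle and 0 in the corticosterone libraries. From its 16 and 0 reads the exact 95% interval of the ratio of vehicle over corticosterone starts at 2.89 (limma adjusted p = 0.0055).

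Of 26 other tendon genes, 23 were analysed, of which 3 were higher and 14 lower by adjusted p. Since 20 of the 23 had a mean of at least 10, the 3 that were higher are near the share of 14.2% among all genes at that level, against 13.5% lower. *Egr2*, an early growth response factor of the tendon programme, went from 634 ± 101 to 151 ± 21.6 (SD, n = 3; -2.07 ± 0.12, limma adjusted p = 2.6e-09), and its relative *Egr1* gave -0.90 ± 0.08. *Lum*, the collagen-binding proteoglycan lumican, went from 12353 ± 1122 to 3258 ± 275 (-1.92 ± 0.06, 3.8e-12), and *Fmod*, fibromodulin, gave -0.96 ± 0.05. *Lox*, the lysyl oxidase that crosslinks collagen, went the other way, from 12069 ± 820 to 21506 ± 555 (0.84 ± 0.05, 1.4e-09). Since osteoblasts express many of these matrix genes too, the list is not specific to tendon.

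**Figure D4:**
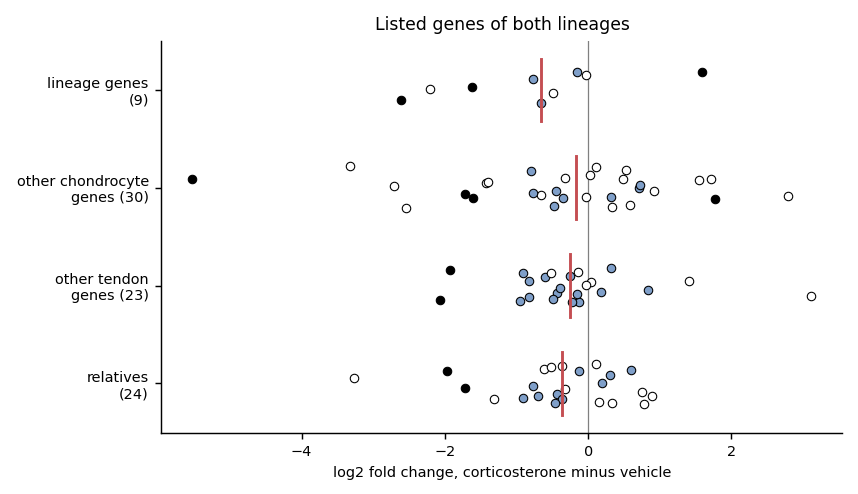
Log2 fold changes of corticosterone over vehicle (x axis) for the 9 analysed lineage genes, 30 other cartilage genes, 23 other tendon genes and 24 relatives (rows; the vertical position of a point within its row carries no meaning, and a gene of 2 lists is drawn in both). Black points passed the threshold, blue points passed the adjusted p alone, open points passed neither and red bars are medians, at -0.66, -0.17, -0.25 and -0.37.

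Several defining markers of both lineages were near 0 or not analysed. *Tnmd* and *Matn1* were at or under the floor, and *Acan*, *Col9a1* and *Thbs4* were not analysed here. The others, *Col2a1*, *Col10a1*, *Col11a2*, *Scx*, *Mkx* and *Fmod*, were counted in every library. Markers of other cells were low, with summed normalized counts of 8.49 to 17.8 with vehicle and 18.8 to 23 with corticosterone for 3 of 5 skeletal muscle markers, 0 to 10.5 and 1.07 to 12.8 for 3 of 4 endothelial markers, and 32.1 to 39.4 and 34.2 to 35.8 for 2 of 5 hematopoietic markers. The adipocyte markers moved with the groups, from 7.72 to 21.1 with vehicle and 108 to 133 with corticosterone, which came from *Fabp4*, while *Plin1* was at or under the floor and the other 4 were not analysed here. Osteoblast markers moved too, 7 of 9 lower and 1 higher by adjusted p, against 13.5% and 14.2% of genes with a mean of at least 10. All 9 had such a mean, and 4 of them passed the threshold downwards (*Runx2*, *Sp7*, *Ibsp* and *Bglap*), against 1.40% of all genes. The part of these shifts in the changes of the lineage genes was not tested.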

How the data were processed

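RNA was measured in 3 vehicle and 3 corticosterone libraries made with a kit that does not mark strand. The labels name the build mm10. The authors used DESeq2; the aligner, counter and strand setting are not given in the sources used here. The deposited values are named FPKM, but all values of a library are multiples of the same step, so the authors deposited a signal that is read counts divided by 1 size factor. By the tolerance used, 100% of values gave whole reads. It was 0.01 for low counts and widened in proportion to the count for high ones, so the largest counts passed by construction.

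The design, written for FPKM, was kept: limma 3.58.1 (R 4.3.3; lmFit, then eBayes with its trend option) was run on log2(value + 0.1), with Benjamini-Hochberg adjustment over all 24016 genes, since the filter on a mean of at least 0.1 removed none. Fold changes are on that scale, and for genes with few reads they can lie above or below the ratio of the group means. Calls needed an adjusted p below 0.05 and a log2 fold change beyond 1 in either direction. Ratios within libraries and single genes were compared by a two-sided exact permutation test. Symbols, lengths and coordinates came from GENCODE on GRCm38, which matched 23983 identifiers, and promoters from RefSeq (GRCm38.p6). Alternatives were other pseudocounts, filters and scalings, a replicate block, no variance trend, edgeR 4.0.16 and DESeq2 1.42.0 on the recovered reads, leaving out each library and, added after seeing the data, thinning reads to the smallest library.

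The genes and lists were chosen with earlier results of these data known. Named genes are the 10 listed, those of the lists past the threshold, up to 5 per list with the largest fold changes at an adjusted p under 0.05, the cartilage collagens and the checks of cells and treatment; others, such as *Col9a2*, *Col9a3*, *Vcan*, *Matn3*, *Bop1* and the Iroquois genes, were chosen after their values were seen. Passages are given as 4 to 10 and 6 to 12, the same for all libraries, so no batch could be separated. Libraries of 1 group differed by more than sampling noise (chi-square per degree of freedom 3.38 to 12.2). Replicate numbers are shared by both groups; the deviations of same-numbered libraries from their group means correlated at -0.0438, 0.00136 and 0.0234 over 13880 genes. Intervals and floors cover counting error only.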

Additional observations from a re-analysis of the deposited data

How the results depend on the processing

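Across 19 alternatives the rise of *Matn2* kept its direction and its side of the threshold, and *Scx* did in 18. The alternative without a filter, included in these and the next counts, repeats the main fit because the filter removed no gene. *Hapln1* passed in 7 of 15 alternatives that gave it an adjusted p and *Sox13* in 7 of 16. edgeR kept 13871 genes, without *Comp*, *Tnmd* and *Hapln1*. Listed lineage genes past the threshold downwards were 2, and 1 with a pseudocount of 0.01, a mean of at least 10, no variance trend, edgeR, DESeq2, thinned reads or the replicate block, with or without edgeR; leaving out single libraries gave 1 to 2. By adjusted p alone 5 were lower, and 2 to 4 without single libraries. With all libraries kept, 4 were lower with a pseudocount of 0.01, the replicate block or DESeq2. With thinned reads 3 were lower, and without a variance trend 2. Over all genes, those past the threshold downwards were 337, and 204 to 321 without single libraries (204 without vehicle 3, 220 without vehicle 2). Genes of the 3 lists past it upwards were 1, 2 with thinned reads (*Cnmd* added) and 1 to 2 without single libraries (*Angptl7* added without vehicle 2). The log2 ratio of *Scx* over *Tnmd* was -0.99 with a pseudocount of 1, which adds to *Tnmd* values of 0. Causes of the other shifts were not tested.

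No pairing of libraries by replicate number was detected, and the sources do not say whether they were paired. With the replicate block, *Scx* stayed at -1.62 (limma adjusted p = 0.00011) and *Sox5* at -0.77, while *Hapln1* was at an adjusted p of 0.064 and *Sox13* at 0.059. Depth limits *Hapln1*, *Sox13*, *Snorc*, *Comp* and *Tnmd*, which had at most 23 reads in a library.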

Other observations

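The Iroquois genes, homeobox relatives of *Mkx* that lie in 2 genomic clusters, moved in both directions. *Irx1* and *Irx2*, of the first cluster, were higher with corticosterone, from 2009 ± 39.9 to 2485 ± 85.2 and from 571 ± 25 to 656 ± 7.12 normalized counts (SD, n = 3; limma adjusted p = 0.00011 and 0.037). *Irx3* and *Irx5*, of the other, were lower, from 1054 ± 84.5 to 559 ± 19.0 and from 1053 ± 27.4 to 764 ± 11.1 (limma adjusted p = 3.4e-08 and 9.2e-06). The groups did not overlap for any of these 4, and they did not for 29.6% of all genes. With single libraries left out, the limma adjusted p of *Irx2* rose to as much as 0.12. *Irx6*, next to *Irx3* and *Irx5*, had 6.80 ± 0.804 and 11.7 ± 2.37 and did not pass the test (limma adjusted p = 0.40). These genes were chosen after their values were seen, and no test of a difference between the clusters was run.

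Among the thrombospondins, the family of *Comp*, *Thbs1* was higher with corticosterone, at 6122 ± 228 against 4070 ± 339 normalized counts (SD, n = 3; limma adjusted p = 5.3e-07), while *Thbs3* was lower, at 459 ± 38.3 against 592 ± 60.6 (limma adjusted p = 0.0050). The limma adjusted p of *Thbs3* rose to as much as 0.076 with single libraries left out. *Sox4*, a SoxC factor of skeletal progenitors, went from 2678 ± 170 to 1973 ± 97.1 (limma adjusted p = 1.6e-05), and its relative *Sox11* had 119 ± 19.7 and 131 ± 5.30 in overlapping groups (limma adjusted p = 0.57).

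*Scx* and *Sox6* had equal read numbers in vehicle 1 (138) and vehicle 3 (168), while they differed in the other 4 libraries.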
